A study of Rattus norvegicus with 2 samples.

Results

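Strong Chd7 peaks that lie apart from Sox10 are the subject here: sites where the chromatin remodeler Chd7 gave a high peak in rat oligodendrocytes and no Sox10 peak was listed. They were chosen by 3 measured values, namely a Chd7 caller score of at least 120, no overlap with any Sox10 peak by even 1 bp, and a position outside the 1 Mb bins that held 30 or more Chd7 peaks. On chromosomes 1 to 20, 651 of the 15310 Chd7 peaks met the rule. The comparison set is the 1139 Chd7 peaks of the same score, outside the same bins, that overlapped a Sox10 peak.

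The data come from chromatin immunoprecipitation followed by sequencing (ChIP-seq). Primary oligodendrocyte progenitors from Sprague Dawley rats had been differentiated for 3 days with the thyroid hormone T3. One library was made with an antibody against Chd7 and another with an antibody against Sox10. Both came from differentiating cells, with no undifferentiated, untreated or mutant group among the samples used here. A peak list holds no expression values, so the labelled cell type could not be checked against marker genes. Neither antibody has a replicate library, so the spread between libraries is unknown and the tests below compare peaks of these lists only.

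Chd7 is an ATP-dependent remodeler of the CHD family. It binds enhancers and promoters, where it moves nucleosomes, and mutations of the human gene cause CHARGE syndrome. Sox10 is a high mobility group transcription factor that oligodendrocytes need for differentiation and for the transcription of myelin genes. Remodelers of this family have chromodomains that recognise methylated histone H3, and transcription factors bring them to particular sites. The files give these sites by position alone, with coordinates on rn5, so no gene or sequence is attached to them here.

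Strong Chd7 peaks without Sox10 made up 36.4% of the 1790 strong peaks outside the dense bins (95% exact interval 34.1% to 38.6%). Among Chd7 peaks of any score outside those bins, 7300 of 13214 lacked Sox10, which is 55.2%. Since score and overlap defined the set, this difference carries no test. The dense bins that the rule left out held 513 further strong peaks, of which 368 lacked Sox10. The rule's score limit runs through a continuous range: the lowest scores inside were 120.09, 120.15 and 120.51, and the highest among weaker Chd7 peaks without Sox10 were 119.94, 119.93 and 119.89. The overlap limit was sharper. The smallest gap from a peak of the set to a Sox10 peak was 115 bp. The smallest overlap in the comparison set was 119 bp, which is also the width of its narrowest peak, so peak width bounds that value. In the comparison set a Sox10 peak covered the centre of the Chd7 peak in 1137 of 1139 cases and the whole Chd7 peak in 94.0%, so few sites sat at the border between the sets. At the limit for dense bins, 23 of the 33 strong peaks in bins with 25 to 29 Chd7 peaks lacked Sox10, and 28 of the 37 in bins with 30 to 34.

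The peaks without Sox10 had a higher median score than those with it, whereas both sets reached the same highest score. Their median score was 197 (quartiles 145 and 345, highest 3100), against 157 (quartiles 135 and 195, highest 3100) in the comparison set. A score of 300 or more was found in 188 of 651 peaks without Sox10, or 28.9%, and in 67 of 1139 with it, or 5.88%. Among strong peaks, the share without Sox10 was 28.1% at scores of 120 to 150 and 27.0% at 150 to 200. It was 39.3% at 200 to 300, 70.5% at 300 to 500 (95% exact interval 61.9% to 78.2%) and 82.9% at 500 to 1000 (73.0% to 90.3%). Of the 44 peaks at 1000 or more, 29 lacked Sox10, a share of 65.9% with a wide interval of 50.1% to 79.5%. In that class the median score was 1220 without Sox10 and 1670 with it. Most Chd7 peaks with scores from 300 upward outside the dense bins thus had no Sox10 call. Score is one of the values that chose the set, so these shares are a description.

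The sets also differed in peak width. Peaks that overlapped Sox10 were alike in width, with a median of 552 bp, quartiles of 459 and 670 bp, and 10th and 90th percentiles of 390 and 815 bp. Those without Sox10 were spread far more widely around a median of 409 bp, with quartiles of 265 and 623 bp and 10th and 90th percentiles of 151 and 1121 bp. The share without Sox10 was high at both ends of the width range and low in the middle. It was 94.1% for the 101 strong peaks under 200 bp (95% exact interval 87.5% to 97.8%) and 82.7% for the 139 of 200 to 300 bp. From 400 to 600 bp it was 21.2% of 720 peaks (18.3% to 24.4%), and from 600 to 800 bp 19.8% of 383. At 1200 bp or more it rose again to 69.0% of 87 peaks (58.1% to 78.5%). A wider peak has more room to meet a Sox10 peak, and the part this plays in these shares was not tested. Counted by whether a Sox10 peak covered the centre of the Chd7 peak, 653 peaks lacked Sox10 in place of 651. The share then was 31.0% in place of 29.6% at 800 to 1200 bp, and each of the other 6 width classes kept its count.

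**Figure D1:**
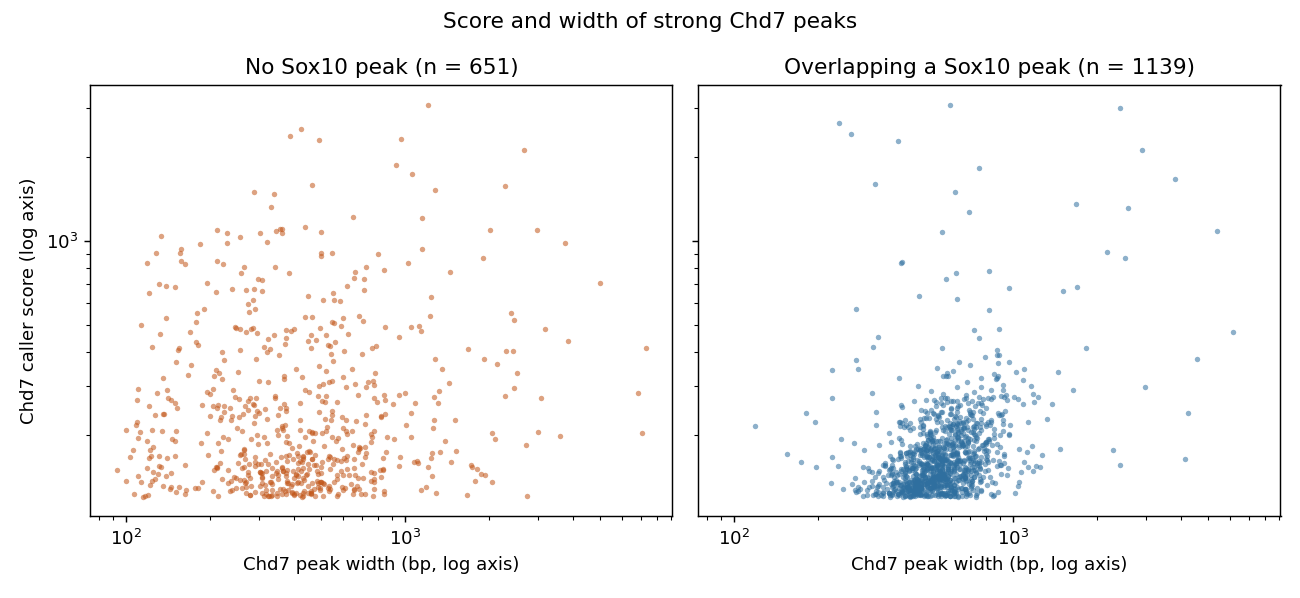
Caller score against width for strong Chd7 peaks, both axes logarithmic, 1 point per peak; 651 peaks without Sox10 on the left and 1139 with Sox10 on the right. The peaks with Sox10 form a compact group around 552 bp, whereas those without it spread from 93 to 7315 bp.

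Score and width were related differently within the sets. Across the 1139 peaks with Sox10, Spearman's rho between score and width was 0.37, and across the 651 without Sox10 it was 0.05. Both values are descriptions across peaks that share 1 library and its depth. A wider peak thus tended to score higher where Sox10 was present, and score and width were nearly unrelated in rank where it was absent. Among peaks without Sox10, the 320 under 400 bp had a median score of 198 (quartiles 145 and 339), the 229 of 400 to 800 bp a median of 174 (140 and 304), and the 102 of 800 bp or more a median of 260 (165 and 480). In the comparison set only 138 peaks were under 400 bp, with a median score of 142, and 12 of these reached 300. Without Sox10, 90 narrow peaks reached 300. Among strong peaks under 400 bp with a score of 300 or more, 88.2% lacked Sox10 (90 of 102, 95% exact interval 80.4% to 93.8%). At ordinary widths of 400 to 800 bp the share was 15.8% at scores of 120 to 200, 20.5% at 200 to 300 and 71.1% at 300 or more (59 of 83, interval 60.1% to 80.5%). At 800 bp or more it was 41.5%, 36.9% and 55.7% (39 of 70, interval 43.3% to 67.6%) in the same order of scores. At scores of 300 or more, the interval lay above an even division for both narrower classes and included it for the widest.

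**Figure D2:**
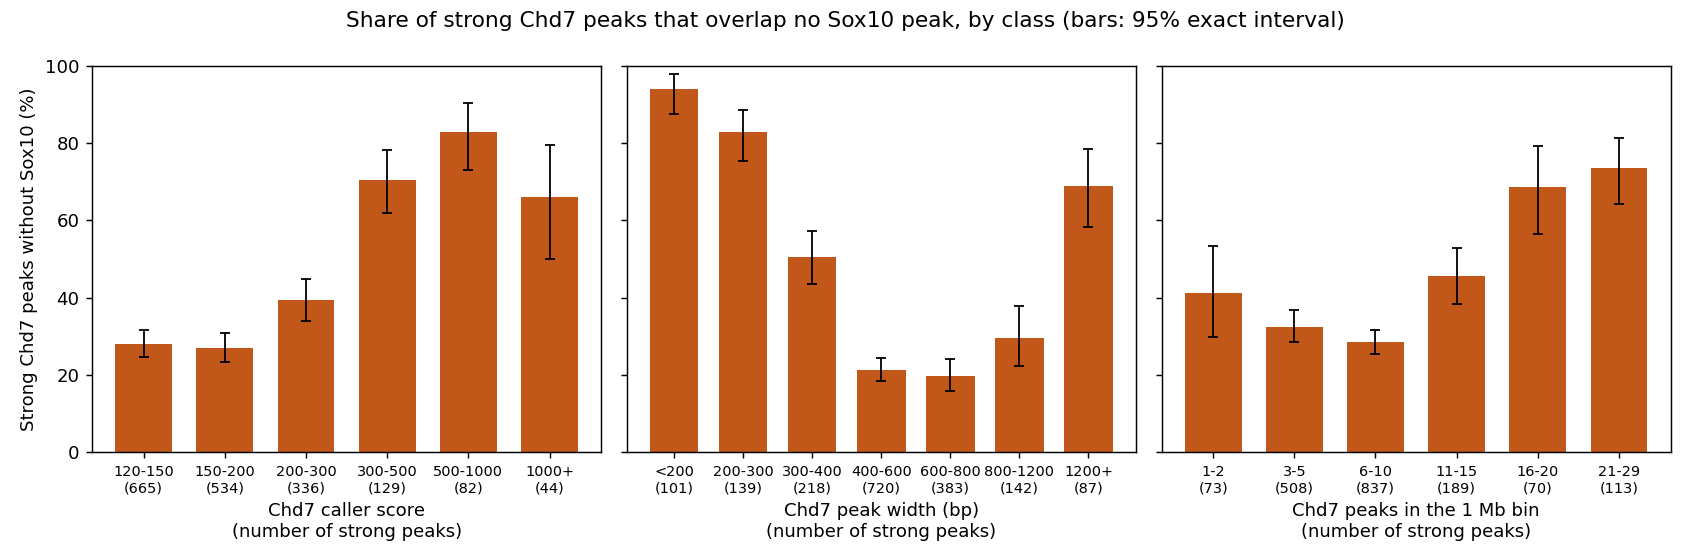
Share of strong Chd7 peaks without Sox10 (per cent) by caller score, by peak width and by the number of Chd7 peaks in the same 1 Mb bin; error bars are 95% exact intervals and the number of peaks stands under each bar. The share is lowest at 400 to 800 bp, near 20%, and highest under 200 bp, in scores of 500 to 1000 and in bins with 21 to 29 Chd7 peaks.

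The 10 highest-scoring sites ranged from 389 to 2684 bp in width, and only 1 of them was under 400 bp. The highest was chr19:67047774-67048984, 1211 bp wide with a score of 3100, which is the highest value in the Chd7 list. Its nearest Sox10 peak lay 61.2 kb away, and a weak Chd7 peak of score 56.3 stood 1.99 kb from it. On chromosome 1, the peaks at chr1:32415009-32415434 (426 bp, score 2535) and chr1:37758158-37758546 (389 bp, score 2389) stood alone, with the nearest other Chd7 peak 717 and 387 kb away. The nearest Sox10 peaks of this pair lay at 64.1 and 34.2 kb and had modest scores of 155 and 142. A further isolated site was chr15:81668120-81668610 (491 bp, score 2302), 53.8 kb from Sox10 and 486 kb from the next Chd7 peak. The same held for chr14:86484627-86485687 (1061 bp, score 1742), whose next Chd7 peak was 117 kb away. At chr16:50743075-50743538 (464 bp, score 1597) another Chd7 peak, of score 232, lay 14.6 kb away and a strong Sox10 peak, of score 868, lay 77.7 kb away.

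The other high sites had company. At chr4:6891447-6892412 (966 bp, score 2321) a second Chd7 peak of score 489 lay 0.060 kb away. At chr4:209837421-209840104 (2684 bp, score 2122) the neighbour, of score 611, lay 6.40 kb away and a Sox10 peak of score 637 lay 20.9 kb away. At chr20:42645437-42646366 (930 bp, score 1884) the bin held 21 Chd7 peaks, the nearest at 1.20 kb. At chr1:201963648-201965924 (2277 bp, score 1572) the bin held 19, and the nearest Sox10 peak was 339 kb off. None of the 10 had a Sox10 peak within 10 kb, and 5 of the 10 had no other Chd7 peak within that distance. Over the 50 highest, 9 had Sox10 within 10 kb, 33 had no other Chd7 peak that near, and 25 were under 400 bp wide. Over all 651 peaks, 3.38% had Sox10 within 1 kb and 19.2% at 1 to 10 kb. Another Chd7 peak lay within 10 kb of 43.2% of the 651, and 320 were under 400 bp wide. Whether the highest sites differ from the rest in these respects was not tested.

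For contrast, the 5 highest comparison peaks included narrow ones of 238, 263 and 389 bp. They were chr3:43095-43688 (594 bp, score 3100), chr12:1488337-1490761 (2425 bp, score 3021), chr1:28057083-28057320 (238 bp, score 2655), chr10:15705633-15705895 (263 bp, score 2418) and chr18:86781051-86781439 (389 bp, score 2292). The Sox10 peaks over them scored 201, 559, 329, 163 and 504. The median Sox10 score over the whole comparison set was 668. By Chd7 score, that median was 606 for 868 peaks of 120 to 200, 1087 for 204 peaks of 200 to 300, and 384 (quartiles 123 and 1588) for the 67 peaks of 300 or more. The last class thus joined weak and strong Sox10 peaks over the broadest range.

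Few of the sites without Sox10 lay right beside a Sox10 peak. The median distance from edge to edge to the nearest Sox10 peak was 33933 bp (quartiles 11602 and 94639 bp). Only 22 of the 651, or 3.38%, lay within 1 kb of one, 125 lay at 1 to 10 kb, 242 at 10 to 50 kb, 111 at 50 to 100 kb, and 151, or 23.2%, at 100 kb or more. Over classes of Chd7 score, with no test, the medians were alike: the distance was 33933 bp for scores of 120 to 200, 28696 bp for 200 to 300 and 36292 bp for 300 or more. The 6649 weaker Chd7 peaks without Sox10, with scores under 120, showed nearly the same spread, with a median of 38967 bp (quartiles 13553 and 103536 bp), 3.16% within 1 kb and 26.0% at 100 kb or more. The Sox10 peak nearest to a strong site had a median score of 92.8 (quartiles 62.3 and 203). For the weaker Chd7 peaks without Sox10 that median was much the same, 88.5 (quartiles 61 and 183).

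**Figure D3:**
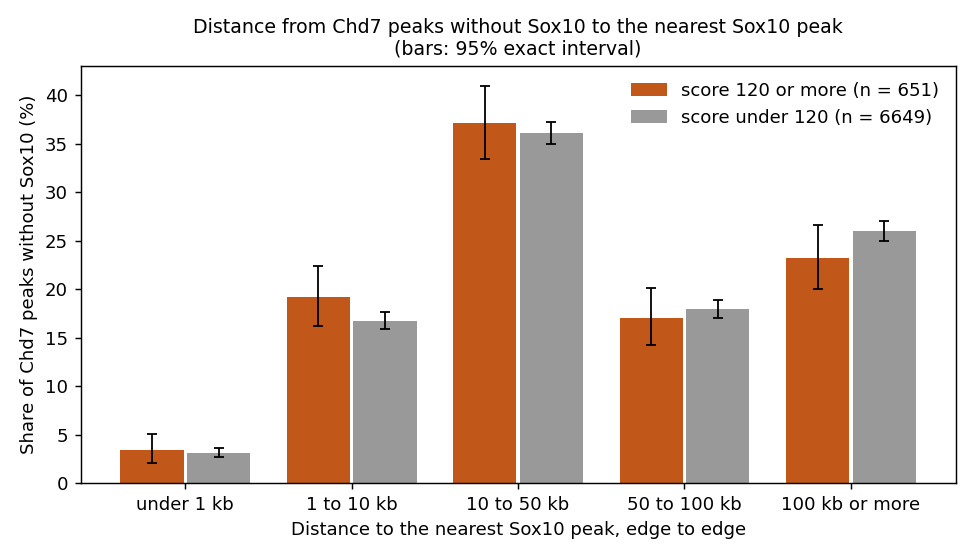
Share (per cent) of Chd7 peaks without Sox10 by distance to the nearest Sox10 peak, for 651 strong and 6649 weaker peaks; error bars are 95% exact intervals. Both groups peak at 10 to 50 kb, with 37.2% and 36.1%, and their intervals overlap in every class.

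The 5 sites nearest to Sox10 lay 115 to 239 bp from it. They were chr8:42117297-42117784 (score 145, gap 115 bp), chr7:95827025-95827312 (score 1505, gap 172 bp), chr4:162258087-162258401 (score 162, gap 225 bp), chr2:216685075-216685592 (score 228, gap 230 bp) and chr16:22019259-22021320 (score 135, gap 239 bp). The adjacent Sox10 peaks scored 58.7, 564, 55.6, 66.9 and 73.0. The chromosome 7 site, 288 bp wide, thus stood out in this group by the scores of both its Chd7 and its Sox10 peak. At the other extreme, among sites with a score of at least 200, chr7:4333671-4333870 (200 bp, score 282) and chr7:4322817-4322926 (110 bp, score 268) lay 673 and 662 kb from the same Sox10 peak. The next were chr1:46965-47160 (196 bp, score 204), 609 kb away, chr14:65855849-65855967 (119 bp, score 833), 579 kb away, and chr14:65401995-65402250 (256 bp, score 480), 549 kb away. All 5 of these remote sites were at most 256 bp wide.

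The surroundings were compared over 5 shares, none of which was itself part of the selection. The rule's limit on Chd7 peaks per bin bears on the shares with Chd7 neighbours. Its Sox10 overlap call also sets the state of neighbouring peaks. Each share was tested with Fisher's exact test, two-sided, with Benjamini-Hochberg adjustment over the 5. Neighbouring peaks are not independent, so these p-values are too small, and values for 1 peak per 1 Mb bin are given where they bear on a result.

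Strong peaks without Sox10 more often had another Chd7 peak close by. Another Chd7 peak of any score lay within 10 kb of 281 of 651 peaks (43.2%), against 203 of 1139 with Sox10 (17.8%) and 19.9% of Chd7 peaks of any score outside dense bins. The difference was 25.3 percentage points (95% interval 20.9 to 29.7, Fisher's exact test, adjusted p = 3.9e-30). It was 10.0 points with only the highest-scoring strong peak of each 1 Mb bin (adjusted p = 6e-05) and 10.2 points without bins of 10 or more Chd7 peaks (adjusted p = 7.6e-06), both in the same Fisher's exact test. The excess was present at scores under 300 and not above. At 120 to 200 the shares were 41.7% and 14.5%, at 200 to 300 they were 51.5% and 23.0%, and at 300 or more 39.9% and 44.8%, a difference of -4.88 points (95% interval -18.5 to 8.48). Closeness also differed by width. Among peaks without Sox10, 25.3% of those under 400 bp, 52.0% of those of 400 to 800 bp and 79.4% of those of 800 bp or more had such a neighbour. In the comparison set these shares were 18.8%, 15.2% and 34.6%, so the sets lay closest together among the narrow peaks. A neighbour within 1 kb was found for 127 peaks without Sox10 (19.5%) and 57 with it (5.00%).

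**Figure D4:**
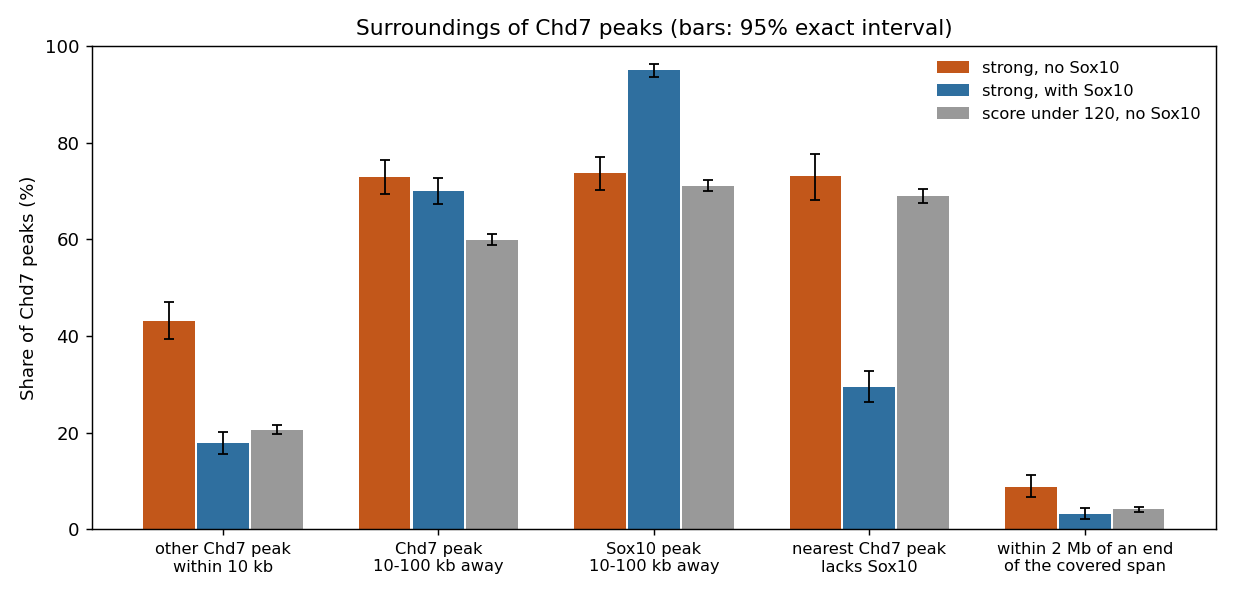
Shares (per cent) of Chd7 peaks with each of 5 features of their surroundings, for strong peaks without Sox10, strong peaks with Sox10 and peaks of score under 120 without Sox10; error bars are 95% exact intervals. Strong peaks without Sox10 stand at 43.2% for a Chd7 neighbour within 10 kb, against 17.8% and 20.6%, and their intervals overlap those of the weaker peaks without Sox10 in both shares that involve Sox10.

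Farther out, the comparison of Chd7 neighbours depended on the distance and on the peaks compared. Of Chd7 peaks of any score outside dense bins, 63.3% had a Chd7 centre 10 to 100 kb away. Among strong peaks, 475 of 651 without Sox10 (73.0%) and 797 of 1139 with it (70.0%) had one. The difference of 2.99 points had a 95% interval of -1.40 to 7.25 (Fisher's exact test, adjusted p = 0.19). At 10 to 50 kb it was 9.32 points and past the threshold (adjusted p = 1.5e-04 in the same Fisher's exact test). Without bins of 10 or more Chd7 peaks it was -6.69 points, past the threshold in the opposite direction (Fisher's exact test, adjusted p = 0.022). By score, it was 2.85 points at 120 to 200, 9.89 points at 200 to 300 (95% interval 0.047 to 19.0) and -12.8 points at 300 or more (-22.6 to -0.61). The average number of such neighbours was 3.50 without Sox10 and 1.59 with it, and the median was 1 in both sets. The upper quartile was 5 without Sox10 and 2 with it, and the highest number was 27 and 19.

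Sox10 peaks were sparser in the neighbourhood of the sites without Sox10, well beyond the sites themselves. Of Chd7 peaks of any score outside dense bins, 81.4% had a Sox10 centre 10 to 100 kb away. It was 480 of 651 for the sites without Sox10 (73.7%), against 1083 of 1139 in the comparison set (95.1%). The difference was -21.4 points (95% interval -25.0 to -17.8, Fisher's exact test, adjusted p = 3e-37). It was -20.3 points with 1 peak per 1 Mb bin. The median number of Sox10 centres in this band was 2 (quartiles 0 and 3) for peaks without Sox10 and 4 (quartiles 2 and 6) for those with it. Weaker Chd7 peaks without Sox10 gave a share of 71.1% and a median of 1, so fewer Sox10 neighbours were also found around weak Chd7 peaks without Sox10. In every score class of strong peaks the share was lower without Sox10: 74.3% against 94.9% at 120 to 200, 70.5% against 97.1% at 200 to 300, and 75.0% against 91.0% at 300 or more.

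Neighbouring Chd7 peaks tended to be alike in their Sox10 state. Only peaks whose nearest other Chd7 peak lay 2 to 100 kb away were counted. That neighbour lacked Sox10 in 253 of 346 cases around peaks without Sox10 (73.1%) and in 226 of 767 cases around peaks with it (29.5%). Over Chd7 peaks of any score outside dense bins, counted in the same way, the share was 51.9%. For weaker Chd7 peaks without Sox10 it was 69.0% (2590 of 3752), so the likeness was also found around weak peaks. Between the strong sets the difference was 43.7 points (95% interval 37.7 to 49.0, Fisher's exact test, adjusted p = 5.7e-42). It was 35.2 points with 1 peak per 1 Mb bin. The neighbour's state is the same overlap call that divided the sets. A neighbour can serve 2 peaks and can itself belong to either set, so 2 peaks nearest to each other can both be counted as alike. Such pairs were neither counted nor removed, so the p-value is no independent support for the likeness. The likeness was present at scores of 300 or more as well, with 68.0% against 36.6%.

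Peaks without Sox10 were also commoner near the ends of the chromosomes' covered spans. Of Chd7 peaks of any score outside dense bins, 3.71% lay within 2 Mb of the first or last peak of either list. Among strong peaks it was 57 of 651 without Sox10 (8.76%) and 36 of 1139 with it (3.16%). The difference was 5.60 points (95% interval 3.33 to 8.17, Fisher's exact test, adjusted p = 8.4e-07). It was no longer past the threshold with 1 peak per 1 Mb bin (2.81 points, adjusted p = 0.064) or among scores of at least 200 (2.90 points, adjusted p = 0.20), both in Fisher's exact test. The 57 came from 15 chromosomes, with the highest counts on chromosome 17 (10), chromosome 7 (8) and chromosome 9 (6). Single bins held most of the first 2 counts: 9 peaks at 91 to 92 Mb on chromosome 17 and 7 at 1 to 2 Mb on chromosome 7.

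Some sites formed tight groups. Peaks of the set were joined to each other at gaps of up to 10 kb. Of the 651, 458 joined no other peak of the set, 47 groups held 2 and 14 held 3. Chd7 peaks outside the set were not joined, so these 458 can have other Chd7 peaks nearby. A Chd7 peak of any score lay within 10 kb of 281 of the 651. The remaining 11 groups, with 4 to 8 peaks each, spanned 12.4 to 56.9 kb, and the deposited list had 0 Sox10 peaks within any of them. The rule chose the peaks in these groups for lacking Sox10, so that 0 was in part set by the selection. How often other stretches of such length hold no Sox10 peak was not tested. The largest was chr17:91079265-91136207, with 8 of the 10 Chd7 peaks there and scores of 142.5 to 450. It includes a peak of 7067 bp at chr17:91123150-91130216. Groups of 6 lay at chr14:4920446-4953392 (scores 128 to 784, widths 328 to 842 bp), chr15:53800911-53834313 (136 to 299, widths 109 to 728 bp) and chr7:5285457-5320379 (121 to 356, widths 493 to 3612 bp). Their nearest Sox10 peaks lay 75774, 136441 and 78387 bp away.

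Most of the smaller groups lay on chromosome 1. Groups of 5 were at chr1:122506359-122522955 (scores 213 to 611), chr1:57192112-57210442 (151 to 375) and chr1:154933179-154954183 (157 to 1212). Groups of 4 were at chr1:54890286-54904194 (244 to 345), chr1:201907305-201924923 (143 to 494), chr20:42604900-42617349 (174 to 807) and chr12:5484668-5502061 (160 to 981). The Sox10 peak nearest to a group was 4029 bp away at the closest, by the chromosome 1 group from 57192112, and 380464 bp at the farthest, by the one from 201907305. All 11 groups lay in bins with 12 to 28 Chd7 peaks, below the limit of the rule but above the median of 8 over the 651 peaks.

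The number of Chd7 peaks in the 1 Mb bin, which the selection used through its limit of 30, is given as a description with no test. Among strong peaks, 41.1% of the 73 in bins with 1 to 2 Chd7 peaks lacked Sox10 (95% exact interval 29.7% to 53.2%), 32.5% with 3 to 5, 28.6% with 6 to 10, 45.5% with 11 to 15, 68.6% with 16 to 20 (95% exact interval 56.4% to 79.1%) and 73.5% with 21 to 29 (64.3% to 81.3%). The share was thus lowest at 6 to 10 and highest in the most crowded bins. Bins with 16 or more held 131 of the 651 peaks without Sox10 (20.1%) and 52 of the 1139 with it (4.57%). The 651 peaks were spread over 434 bins, yet 27 bins with 4 or more of them held 166, or 25.5%. The fullest was the bin from 57 to 58 Mb on chromosome 1, with 11 of its 19 Chd7 peaks in the set and 0 in the comparison set. Next came the bin from 4 to 5 Mb on chromosome 14, with 10 of 13 and again 0. In the bin from 140 to 141 Mb on chromosome 3, by contrast, 8 peaks without Sox10 stood beside 6 with it. Both sets were present in 144 bins. The part that regional read coverage plays in these crowded bins was not tested.

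By chromosome, the share of strong peaks without Sox10 ran from 21.7% on chromosome 3 (26 of 120, 95% exact interval 14.7% to 30.1%) to 49.3% on chromosome 16 (37 of 75, 37.6% to 61.1%). Chromosome 1 had the most, 105 of 215 or 48.8% (42.0% to 55.7%), and chromosome 19 the fewest, 13 of 44. Low shares were also found on chromosome 6 (22.1%) and chromosome 5 (25.9%), and high ones on chromosome 15 (46.7%) and chromosome 7 (46.6%). The density of peaks without Sox10 varied from 0.12 per Mb of covered span on chromosome 5 to 0.41 on chromosome 16. That of the comparison set varied from 0.29 on chromosome 4 to 0.62 on chromosome 18. Differences between chromosomes were not tested.

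**Figure D5:**
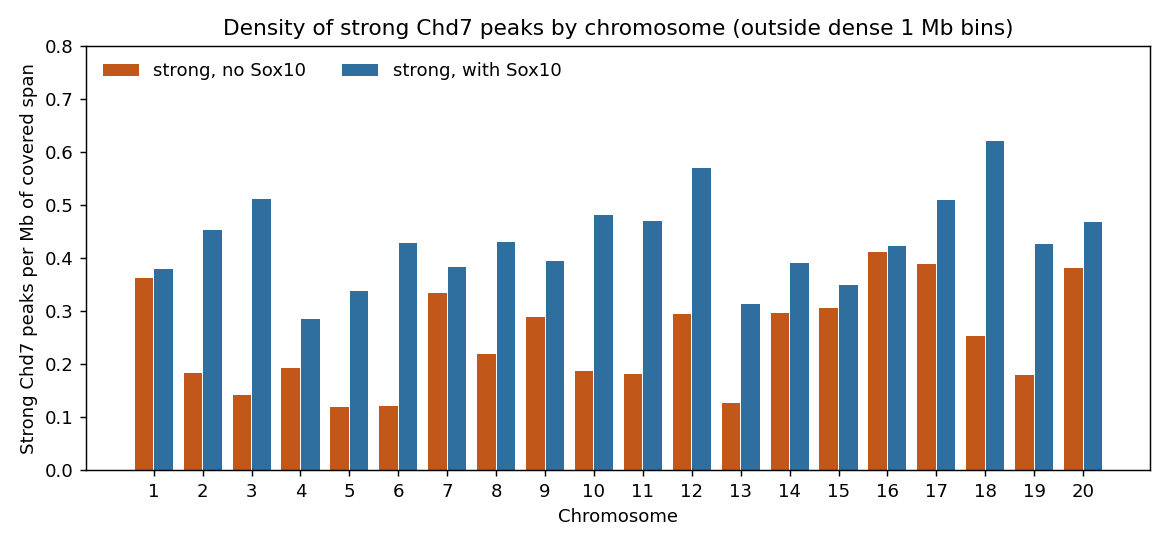
Strong Chd7 peaks per Mb of covered span on each of chromosomes 1 to 20, outside the dense 1 Mb bins, without Sox10 and with Sox10. Peaks with Sox10 are denser on every chromosome, and the sets come closest on chromosomes 1 and 16.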

How the data were processed

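The submitters' processing notes name CASAVA, Bowtie2, MACS and the build rn5. Their settings and any control library are not stated in the labels. For each antibody the authors deposited a list of peaks with a caller score. No score is under 50, the scale is not stated, and scores were used only within a list. The lists hold no read counts, so sequencing depth is unknown.

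Overlap of at least 1 bp was computed in Python 3.11.15 with numpy 2.4.6 and pandas 2.3.3, and the count of overlapping peaks equalled that of bedtools 2.31.1. The 1 Mb bins were numbered by peak start. Exact (Clopper-Pearson) intervals and Fisher's exact test used scipy 1.17.1 and Newcombe intervals of differences statsmodels 0.14.6. All of them cover counting error only. The calculation was tested on simulated data. Coordinates are 1-based.

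The peaks, lists and tests were chosen with earlier results of these data known. Named peaks are the 10 highest, the 5 nearest to Sox10, the 5 farthest with scores of at least 200, and groups of 4 or more, besides the 5 highest comparison peaks. The chromosome 17 peak of 7067 bp, the bins and the chromosomes named were picked after their values were seen. Alternatives concerned the score limit, the overlap rule, the dense bins and the distances. Those added after seeing the data were bins of 10 or more Chd7 peaks left out, peaks of 300 to 1000 bp, and 1 peak per 1 Mb bin. An rn5 annotation and sequence were not used here, so the planned comparisons of gene starts, CpG content, repeats and motifs were not run.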

Additional observations from a re-analysis of the deposited data

How the results depend on the processing

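The share of strong Chd7 peaks without Sox10, 36.4% and 651 peaks, depended on the score limit and on crowded bins. It was 54.1% (320 peaks) at scores of at least 200, 44.2% (1019) with no bin left out, 33.9% without bins of 20 or more Chd7 peaks, 30.7% (408) without bins of 10 or more, 39.3% against the upper 50% of Sox10 peaks by score and 25.5% (364) for peaks of 300 to 1000 bp. The number was 1000 at scores of at least 100 and 381 with 1 peak per 1 Mb bin, where the shares were within the interval of the main one. In all 8 alternatives to each, the differences in close Chd7 neighbours (10.0 to 29.4 points), Sox10 peaks 10 to 100 kb away (-30.1 to -12.3) and the neighbour's Sox10 state (35.2 to 51.0) kept their direction and their side of the threshold. The difference near span ends ran from 2.63 to 7.85 points and missed the threshold in 2 of 8 alternatives, at 2.90 points for scores of at least 200 and 2.81 points with 1 peak per 1 Mb bin. The difference in Chd7 peaks 10 to 100 kb away, 2.99 points, was 9.32 at 10 to 50 kb (Fisher's exact test, adjusted p = 1.5e-04), -0.57 at 20 to 200 kb, -6.69 without bins of 10 or more Chd7 peaks (adjusted p = 0.022) and -1.90 with 1 peak per 1 Mb bin. No paired analysis was possible because there is a single library for each protein, and no replicate could be left out. The alternatives on gene starts, CpG content and repeats were not run. Depth is unknown, so a site without a Sox10 call may hold Sox10 below the score floor of 50.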

Other observations

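Chromosome X, which the selection left out, held 55 Chd7 peaks with a score of at least 120, none of them in a dense bin. Of these, 45 overlapped no Sox10 peak. They resembled the autosomal ones in score, with a median of 207 (quartiles 135 and 376, highest 883), and in width, with a median of 471 bp (quartiles 267 and 692 bp). Their nearest Sox10 peak lay farther off, at a median of 83716 bp (quartiles 29184 and 592272 bp). The 10 X peaks that overlapped Sox10 had a median score of 166 and a median width of 532.5 bp. On unplaced or mitochondrial sequence 15 further peaks had such a score, and 13 of these overlapped no Sox10 peak.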
